A study of Mus musculus with 12 samples.

Results

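Histone genes and histone variant genes were followed in growing mouse oocytes with and without TBPL2, the TBP paralogue that replaces TBP in the growing oocyte. Members were all genes whose symbol began with Hist1h to Hist4h, H1f, H2af or H3f3, with 4 pseudogene names ending in -ps left out, which gave 87 of the 55450 genes counted. They comprised 17 variant genes, 69 genes of the histone clusters and H3f3aos, an RNA antisense to H3f3a. Of the cluster genes, 56 lie on chromosome 13, 10 on chromosome 3, 2 on chromosome 11 and 1 on chromosome 6. Among the cluster genes, 3 (Hist1h1t, Hist1h2aa and Hist1h2ba) are known for expression in germ cells, and the other 66 were taken as replication-dependent. The 4 groups were WT and Tbpl2-/- oocytes, each taken at postnatal day 7 (P7) and day 14 (P14), with 3 libraries each from pools of 130 to 400 oocytes. Oocytes of primary follicles were collected at P7 and of secondary follicles at P14, after enzymatic digestion of the ovaries and selection by size. The mutants carry the Tbpl2- allele on both copies of the gene, no other allele or treatment is named for any group, and which animals gave which pool is not stated, so p-values measure the spread between 3 pools.

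Nucleosomes are built from the core histones H2A, H2B, H3 and H4, and linker histones of the H1 family bind the DNA between them. Replication-dependent histone mRNAs are made for S phase and normally end in a conserved stem-loop without a poly(A) tail, whereas variant genes give polyadenylated mRNAs and are used throughout the cell cycle. The growing oocyte is arrested in meiotic prophase, does not replicate its DNA, and stores histone mRNA and protein, among them the oocyte-specific linker histone H1FOO, for the early embryo.

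Libraries were primed on poly(A), so a histone mRNA that ends at its stem-loop is captured poorly or not at all, and the values below describe polyadenylated or internally primed histone RNA. Totals were 31467610 to 48030724 counts per library. Normalised counts are counts divided by 1 factor per library, which the authors set by the median-of-ratios method. They are therefore not scaled to depth alone. Tbpl2 itself stood at 3027 to 3317 normalised counts in P7 WT against 75.2 to 117 in the mutant, and at 1900 to 2442 against 75.3 to 83.3 at P14. The 13 oocyte markers took 3.31 to 4.30% of counts in WT libraries and 1.35 to 1.73% in Tbpl2-/- libraries. Not all moved alike: 7 fell and 3 rose at P7, and 9 fell and 2 rose at P14. Among all tested genes 28.9% were lower and 30.5% higher at P7, and 27.8% and 29.9% at P14. Of 16 granulosa cell markers tested, 12 fell and none rose at P7, where their summed level was 2848 to 3765 normalised counts in WT and 1342 to 1761 in Tbpl2-/-. At P14 the sums overlapped (2530 to 2806 and 2339 to 2798) with 2 markers lower and 2 higher, and no granulosa marker was at 0 counts. Of 10 theca and stroma markers 5 were tested, with sums of 82.8 to 133 in WT and 165 to 200 in Tbpl2-/- at P7, and 128 to 175 and 121 to 195 at P14. Of these 5, none fell and 2 rose at P7, and 1 fell and 1 rose at P14. Of 9 blood and endothelial markers 3 were tested: 1 fell and none rose at P7, and 1 fell and 1 rose at P14. Their list had sums of 749 to 1289 in WT and 202 to 248 in Tbpl2-/- at P7, and of 2187 to 2918 and 525 to 691 at P14, without overlap at either age. Most of these sums came from Pecam1, while the globin genes Hba-a2 and Hbb-bt were at 0 counts. The part of these shifts in the histone values was not tested. In such pools, fewer cells of a type and less RNA per cell cannot be told apart.

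The sequences near the transcript end are shown because the form of the end bears on what a poly(A)-primed library can hold. The motif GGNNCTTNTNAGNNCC, a form of the histone stem-loop, was searched on the strand of the gene in the GENCODE M21 transcripts (GRCm38), and it was present in 47 of the 87 members and in 201 of all 55450 genes (0.362%). Each line gives the stem-loop in lower case with its 4-base loop in capitals.
H2afx: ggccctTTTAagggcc
Hist1h1c: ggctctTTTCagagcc
Hist4h4: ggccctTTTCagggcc
Hist1h4a: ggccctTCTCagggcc
Hist1h2bb: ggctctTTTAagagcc
Hist1h2bk: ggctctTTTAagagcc
These stretches lie at chr9:44335240-44335255 (plus strand), chr13:23739512-23739527 (plus), chr6:136803998-136804013 (minus), chr13:23760800-23760815 (minus), chr13:23747203-23747218 (plus) and chr13:22036300-22036315 (plus), in the order of the lines. The annotated transcript goes on for 822 bases after the stem-loop in H2afx, 840 in Hist1h1c and 2445 in Hist4h4, but for only 23 in Hist1h2bb and 30 in Hist1h2bk. H2afx is the only variant gene with the motif.

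The levels are first set beside the annotated transcript ends. Of the 17 variant genes, 11 have a poly(A) signal in the last 50 bases of an annotated transcript, and those 11 were the ones that passed the filter on low counts. The 6 without a signal (H1fnt, H2afb1, H2afb2, H2afb3, H2afy3 and H3f3c) had between 0 and 11 counts over the 12 libraries. Some annotated transcripts are short, such as H2afb1 with 348 bases, H3f3c with 411 and the cluster gene Hist1h4k with 312. These may lack their end, so a missing feature may be a gap in the annotation. Among cluster genes, the median of the mean level over 12 libraries was 32.5 normalised counts for the 14 with both a stem-loop and a poly(A) signal, 1.23 for the 32 with a stem-loop alone, 0.121 for the 20 with neither and 0 for the 3 with a signal alone, of which the highest had 2.27. The cluster gene with the most counts, Hist1h2bc, is 1 of those 20. Only uniquely aligned reads were counted, so reads from near-identical copies are missing. The median share of 50-base stretches found in another gene as well was 77.4% in the 42 cluster genes that were not tested, 31.5% in the 27 that were, and 7.0% in the 11 tested variants. The part of shared sequence in the levels was not tested.

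**Figure D1:**
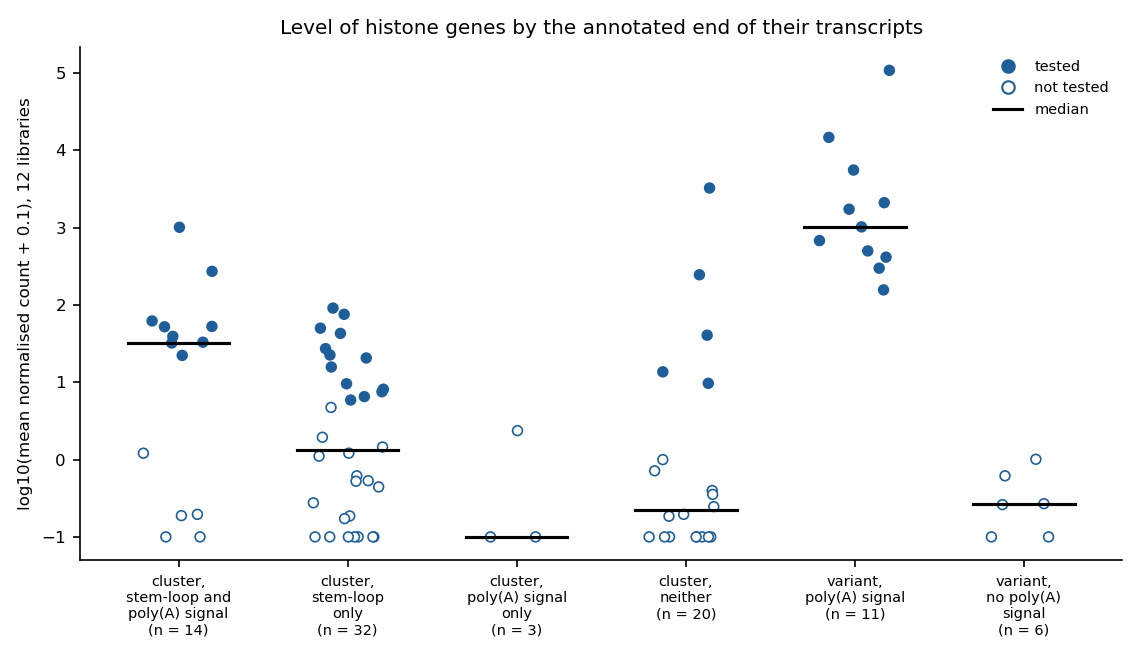
Mean normalised count over the 12 libraries (vertical axis, log10 of the mean plus 0.1) of cluster and variant genes, grouped by the presence of a stem-loop and of a poly(A) signal in the last 50 bases of an annotated transcript. Points are genes: variant genes with a poly(A) signal and no stem-loop range from 157 to 108552, and cluster genes with neither feature have a median of 0.121 and reach 3261 with Hist1h2bc. A feature missing from a short annotated transcript may be a gap in the annotation.

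In all, 39 of the 87 members were tested and 48 were not, of which 21 had no count in any library. An untested member had at most 55 counts over the 12 libraries (Hist1h4d). Of the tested members, 25 had at least 10 counts in every library and 5 had that many in fewer than 6 libraries, so a member of low level may have been tested only because it was high in 1 group. In Tbpl2-/- oocytes at P14, 15 members fell and 10 rose (adjusted p no higher than 0.05, edgeR's quasi-likelihood test), against 27.8% lower and 29.9% higher among the 17715 tested genes. The median log2 change of the 39 was −0.22, beside 0.07 for the tested genes. At P7, 17 fell and 7 rose, against 28.9% lower and 30.5% higher, with a median of −0.44 beside 0.02. A change of more than 2-fold was passed by 11 members downward and 5 upward at P14 (14.6% and 16.7% of tested genes), and by 9 and 5 at P7 (17.1% and 15.5%). With library size as the only scaling, which moves the median of the tested genes to 0.48 at P14 and 0.29 at P7, 8 members fell and 17 rose at P14, and 10 fell and 8 rose at P7. At P14 the balance over the 39 members thus turned with the scaling (median 0.18 with library size alone), and at P7 it kept its direction but was smaller (median −0.16). None of the members past the threshold turned its sign under any alternative tried. All these scalings are relative within a library and give no level per oocyte. A member that rose is thus higher relative to the other RNA of its library.

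H1foo, the oocyte linker histone (ENSMUSG00000042279, chr6:115944938-115950236, plus strand, GRCm38), was by level the dominant histone gene and ranked 12th by counts among all genes. It stood at 186080, 202437 and 261635 normalised counts in the P7 WT libraries and at 32467, 26176 and 27561 in the P7 Tbpl2-/- libraries. The P14 WT libraries held 157540, 168233 and 127843, and the P14 Tbpl2-/- libraries 44480, 36385 and 31782. At both ages every mutant library lay far below every WT library, and the mutant libraries of P7 and P14 overlapped. The log2 change between genotypes was −2.90 (SE 0.16, adjusted p 1.2e-09) at P7, a 7.45-fold fall, and −1.99 (SE 0.16, adjusted p 4.9e-08) at P14, a 3.97-fold fall. It fell under all 19 alternatives at each age, with log2 changes of −3.00 to −2.62 at P7 and −2.10 to −1.57 at P14. The smaller change at P14 was past the threshold in the test of the difference itself (interaction of 0.91 log2, SE 0.22, adjusted p 0.0075). In WT, H1foo fell by 0.52 on the log2 scale from P7 to P14 (adjusted p 0.011), and this call was lost without P14 WT replicate 3 (−0.41, adjusted p 0.057) or without P7 WT replicate 3 (−0.36, adjusted p 0.069).

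Per kb of median transcript length, the scale on which genes can be compared, H1foo stood at 194715 normalised counts in P7 WT and H3f3b, the next of the variants, at 17840. In P14 WT these were 135854 and 11454. In Tbpl2-/- oocytes they were 25817 and 6410 per kb at P7 and 33737 and 5427 at P14, so that the order stayed but the distance narrowed. The remaining tested variants ranged from 79.2 per kb (H2afy2) to 5085 per kb (H2afx) in P7 WT. In P7 WT the order after H2afx was H2afy, H1f0, H3f3a, H2afv, H1fx, H2afj, H2afz and H2afy2, but the libraries of several neighbours overlapped, and the order was not tested.

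H1foo took 81.0% ± 1.20 (SD, n = 3) of all histone counts in P7 WT and 82.1% ± 2.04 in P14 WT. In Tbpl2-/- its share was 52.6% ± 0.438 at P7 and 62.8% ± 1.25 at P14. No mutant library reached the share of any WT library. The other variants took 16.4% in P7 WT against 36.1% in the mutant, and 15.1% against 30.3% at P14. The replication-dependent genes took 2.49% in P7 WT against 11.1% in the mutant, and 2.51% against 6.63% at P14. These shares are of one another, and a fall of H1foo alone raises the others. Of all counts in a library, H1foo took 0.530% ± 0.107 in WT and 0.0863% ± 0.0115 in Tbpl2-/- at P7, and 0.332% ± 0.0342 and 0.112% ± 0.0185 at P14. All the other members together took 0.123%, 0.0778%, 0.0717% and 0.0660% in the same order, and the replication-dependent genes 0.0162%, 0.0182%, 0.0101% and 0.0116%. Sums over members were given no test.

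**Figure D2:**
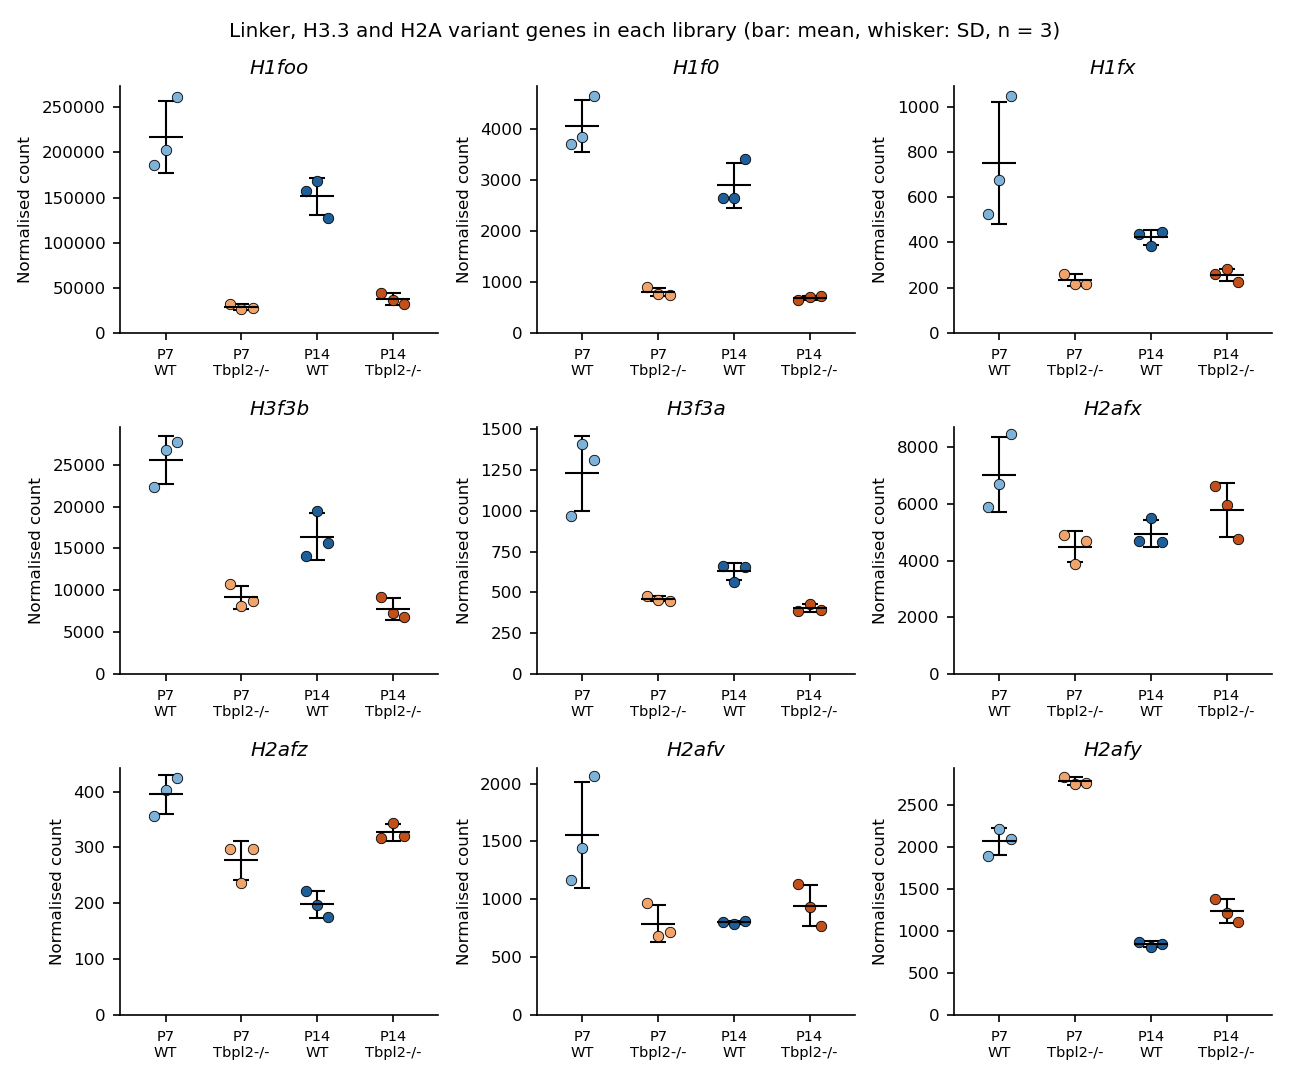
Normalised counts of H1foo and 8 other variant genes (vertical axes, 1 panel a gene) in the 12 libraries, by group. Points are libraries, bars group means and whiskers the SD over 3 libraries: for H1foo, H1f0 and H3f3b the mutant libraries lie below the WT libraries at both ages, and for H2afy they lie above.

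Both other linker variants that were tested fell as well. H1f0, the linker histone that accumulates in cells that have stopped dividing, stood at 3695, 3828 and 4633 normalised counts in P7 WT and 892, 759 and 752 in P7 Tbpl2-/-. At P14 it stood at 2632, 2636 and 3403 in WT and 639, 695 and 718 in Tbpl2-/-. The groups lay far apart at each age, with log2 changes of −2.32 (SE 0.14, adjusted p 2.7e-09) at P7 and −2.06 (SE 0.14, adjusted p 1.1e-08) at P14, and no difference between the ages passed the test (interaction 0.26, adjusted p 0.33). H1fx, a linker histone of somatic cells, had 524, 676 and 1049 normalised counts in P7 WT against 263, 218 and 217 in P7 Tbpl2-/-. At P14 it had 439, 386 and 445 against 261, 282 and 226. Its WT libraries were higher than all mutant libraries, though P7 WT replicate 3 stood well above the others of its group. The log2 change was −1.67 (adjusted p 6.7e-06) at P7 and −0.70 (adjusted p 0.0095) at P14, where the call was lost with library size as the only scaling (−0.29, adjusted p 0.27). Of the exons of H1fx, 19.5% overlap another gene. H1fnt, a linker histone of the testis, had 2 counts in all.

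Both H3.3 genes fell. They encode the same replication-independent H3 protein, which is placed into chromatin outside S phase. H3f3b stood at 22346, 26714 and 27661 normalised counts in P7 WT and at 10746, 8158 and 8664 in P7 Tbpl2-/-. At P14 it stood at 14098, 19499 and 15662 in WT and at 9233, 7330 and 6774 in Tbpl2-/-. The ranges did not overlap at either age, and the log2 changes were −1.46 (SE 0.15, adjusted p 7.6e-07) at P7 and −1.06 (SE 0.15, adjusted p 2.1e-05) at P14. H3f3a had 970, 1408 and 1310 normalised counts in P7 WT and 481, 455 and 450 in P7 Tbpl2-/-. At P14 it had 663, 566 and 657 in WT and 386, 430 and 390 in Tbpl2-/-. The mutant libraries were alike at both ages, whereas every P7 WT library was above every P14 WT library. Its log2 change was −1.39 (SE 0.15, adjusted p 1.1e-06) at P7 and −0.62 (SE 0.15, adjusted p 0.0021) at P14, the latter lost with library size as the only scaling (−0.21, adjusted p 0.27), and the change differed between ages (interaction 0.77, adjusted p 0.014). In H3f3a 22.8% of the exons overlap another gene, among them H3f3aos on the opposite strand, and no strand is marked in these libraries. H3f3aos was low (0 to 21.8 normalised counts) and passed in neither comparison.

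The H2A variants did not move as a group. Of the 6 tested, none fell and 2 rose at P14 (median log2 change 0.43), and 3 fell and 1 rose at P7 (median −0.33). Among all tested genes 27.8% were lower and 29.9% higher at P14, and 28.9% and 30.5% at P7. H2afz and H2afv, which encode the H2A.Z proteins found at promoters, and H2afx, whose protein is phosphorylated at DNA breaks, fell at P7. H2afz had 357, 403 and 424 normalised counts in P7 WT and 298, 236 and 297 in P7 Tbpl2-/-, but 222, 196 and 175 in P14 WT and 316, 344 and 320 in P14 Tbpl2-/-. The groups did not overlap at either age, and their order was opposite, since the WT level at P14 was below that at P7 while the mutant level was not. The log2 change was −0.49 (adjusted p 0.013) at P7 and 0.74 (adjusted p 0.00080) at P14, an interaction of 1.24 (SE 0.22, adjusted p 0.0016). The fall of H2afz at P7 was lost in 3 of 19 alternatives, among them library size alone (−0.21, adjusted p 0.27) and leaving out P7 Tbpl2-/- replicate 2 (−0.40, adjusted p 0.071), while its rise at P14 passed in all 19. Of its transcript, 35.4% of 50-base stretches occur in another gene.

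H2afv had 1168, 1443 and 2063 normalised counts in P7 WT and 970, 683 and 718 in P7 Tbpl2-/-, and 804, 790 and 811 in P14 WT and 1131, 933 and 773 in P14 Tbpl2-/-. The WT libraries were all higher at P7, and the groups overlapped at P14. The log2 change was −0.96 (SE 0.20, adjusted p 0.00061) at P7 and 0.26 (adjusted p 0.28) at P14, with an interaction of 1.219 (adjusted p 0.0061). H2afx had 5905, 6715 and 8494 in P7 WT against 4919, 3895 and 4694 in the P7 mutant, and 4690, 5499 and 4663 in P14 WT against 6647, 5964 and 4752 in the P14 mutant. Here too WT was higher at P7 only, with log2 changes of −0.63 (adjusted p 0.0021) and 0.25 (adjusted p 0.17) and an interaction of 0.87 (adjusted p 0.0083). With library size alone the P7 change of H2afx no longer passed (−0.35, adjusted p 0.064), and at P14 H2afx and H2afv were then higher (0.66 and 0.67, adjusted p 0.0017 and 0.012).

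H2afy encodes macroH2A1, an H2A with a large additional domain that is found on silent chromatin such as the inactive X. It had 1890, 2212 and 2102 normalised counts in P7 WT and 2840, 2752 and 2768 in P7 Tbpl2-/-, and 875, 807 and 850 in P14 WT and 1385, 1218 and 1108 in P14 Tbpl2-/-. The mutant libraries were higher at both ages and the P7 libraries higher in both genotypes. The rise was 0.45 log2 (SE 0.11, adjusted p 0.0031) at P7 and 0.57 (SE 0.12, adjusted p 0.00053) at P14, and it passed in all 19 alternatives at each age. H2afj and H2afy2, which encode H2A.J and macroH2A2, passed in neither comparison. Their log2 changes were −0.17 and −0.01 at P7 and 0.47 and 0.39 at P14 (adjusted p 0.064 and 0.089 at P14). Both passed at P14 with library size alone (0.89 and 0.80).

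**Figure D3:**
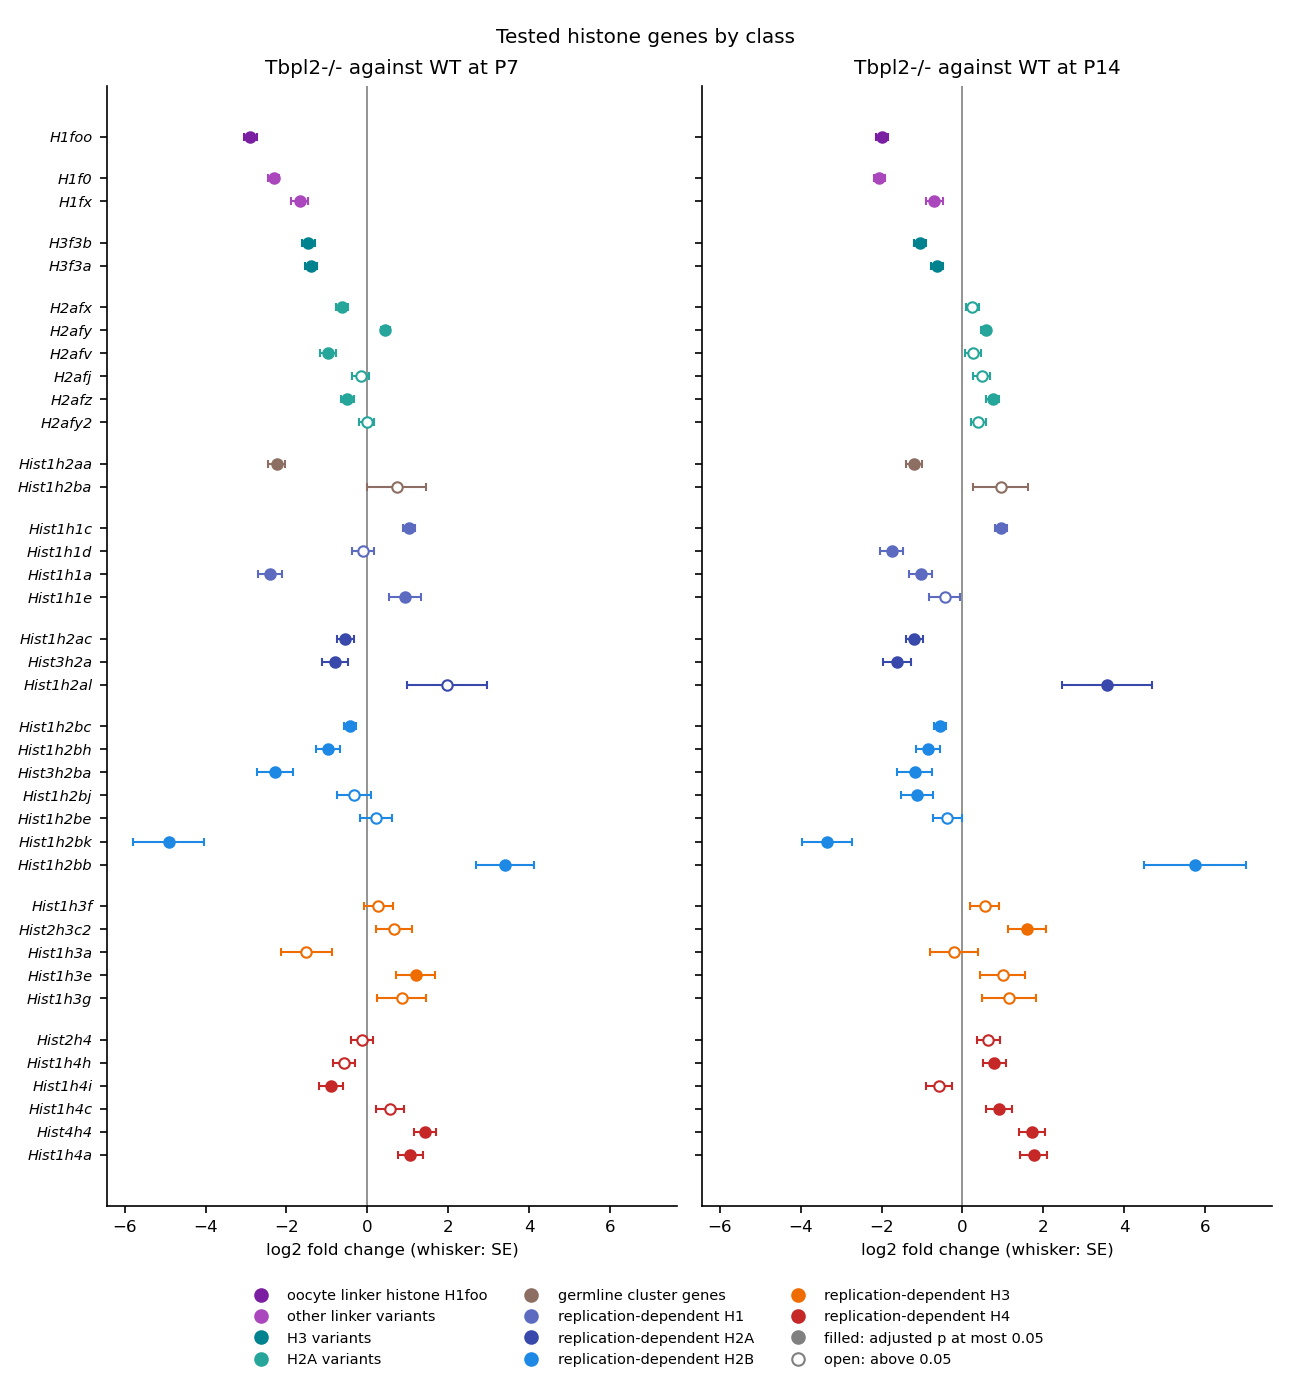
Log2 change in Tbpl2-/- against WT (horizontal axis, with SE) of the 38 tested sense members at P7 and P14, by class. Filled points have an adjusted p of at most 0.05: H1foo, H1f0 and both H3.3 genes lie to the left at both ages, H2A variants on either side, and replication-dependent genes spread to both sides.

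Of the germline cluster genes, Hist1h2aa, an H2A gene known from testis and oocytes, had 322, 284 and 378 normalised counts in P7 WT and 78.8, 62.5 and 63.1 in P7 Tbpl2-/-. At P14 it had 503, 333 and 397 in WT and 165, 167 and 197 in Tbpl2-/-. WT libraries were higher throughout, and the mutant libraries were higher at P14 than at P7. The log2 changes were −2.25 (SE 0.20, adjusted p 1.6e-07) at P7 and −1.20 (SE 0.19, adjusted p 5.4e-05) at P14, and they differed (interaction 1.05, adjusted p 0.011). Another gene overlaps 33.1% of its exons. Hist1h2ba, the H2B gene that is its neighbour, was low, at 0 to 23.9 normalised counts, and did not pass (log2 changes 0.72 and 0.95 at P7 and P14). Hist1h1t, a testis linker histone, had 1 count over the 12 libraries.

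Among the 66 replication-dependent genes, 25 were tested. At P14, 9 fell and 8 rose (median log2 change −0.22), and at P7, 8 fell and 6 rose (median −0.11). Among all tested genes 27.8% were lower and 29.9% higher at P14, and 28.9% and 30.5% at P7, which is near these calls. The same shares stand beside the counts of each class below. The P14 median was −0.22 also with Hist1h2bb, which had no count in P14 WT, at its lower bound. With library size alone 4 fell and 11 rose at P14, and 3 fell and 7 rose at P7. A single gene, Hist1h2bc, which encodes an H2B, gave 68.0% of the replication-dependent counts in WT and 54.1% in Tbpl2-/- at P7, and 68.4% and 53.7% at P14. Its P7 libraries overlapped, at 3752, 4464 and 5350 normalised counts in WT and 4024, 2758 and 3120 in Tbpl2-/-. At P14 they did not, at 3385, 2920 and 3068 in WT and 2092, 2144 and 2049 in Tbpl2-/-. The log2 changes of −0.44 (adjusted p 0.018) and −0.56 (adjusted p 0.0043) were both lost with library size alone (−0.16 and −0.14, adjusted p 0.40 and 0.45). The P7 call was also lost without P7 WT replicate 3 (−0.30, adjusted p 0.095) and without P7 Tbpl2-/- replicate 2 (−0.33, adjusted p 0.094) or 3 (−0.41, adjusted p 0.062). Of its transcript, 30.6% of 50-base stretches occur in another gene.

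The 4 tested replication-dependent linker genes went separate ways. Hist1h1c, the H1.2 gene, had 738, 870 and 918 normalised counts in P7 WT and 1864, 1545 and 1725 in P7 Tbpl2-/-, and 467, 483 and 590 in P14 WT and 1162, 895 and 892 in P14 Tbpl2-/-. The mutant libraries were higher at both ages, by 1.04 log2 (SE 0.15, adjusted p 2.0e-05) and 0.95 (SE 0.15, adjusted p 5.5e-05). Hist1h1a, the H1.1 gene, had 52.2, 82.7 and 84.8 in P7 WT and 15.2, 12.7 and 12.6 in P7 Tbpl2-/-, and 55.8, 41.3 and 56.0 in P14 WT and 23.0, 22.9 and 27.7 in P14 Tbpl2-/-. It was lower in every mutant library, with log2 changes of −2.41 (SE 0.30, adjusted p 5.6e-06) at P7 and −1.04 (SE 0.28, adjusted p 0.0051) at P14, the latter lost with library size alone (−0.63, adjusted p 0.072). Hist1h1d, the H1.3 gene, overlapped between genotypes at P7, at 109, 116 and 58.3 in WT and 88.9, 103 and 69.4 in Tbpl2-/-. At P14 it was lower in all mutant libraries, at 42.1, 40.9 and 40.7 against 184, 102 and 138 in WT (log2 change −1.75, SE 0.29, adjusted p 9.2e-05), and the interaction was −1.65 (adjusted p 0.0084). Hist1h1e, the H1.4 gene, passed only at P7 (0.93, adjusted p 0.048), a call lost in 15 of 18 alternatives.

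Of 3 tested replication-dependent H2A genes, 2 fell at each age. Hist1h2ac changed by −0.55 log2 (adjusted p 0.035) at P7 and −1.19 (adjusted p 0.00019) at P14, and Hist3h2a by −0.81 (adjusted p 0.039) and −1.62 (adjusted p 0.00079). Neither passed at P7 with library size alone. Those P7 calls were also lost without P7 WT replicate 2 or P7 Tbpl2-/- replicate 2 or 3, and that of Hist3h2a without P7 WT replicate 3, P7 Tbpl2-/- replicate 1 or P14 WT replicate 3 as well (adjusted p 0.051 to 0.16). Hist1h2al, an annotated pseudogene with 67.6% of its stretches in another gene, rose at P14 (3.57) from 0 to 4.15 normalised counts in WT to 6.92 to 48.8 in Tbpl2-/-. It may have been tested only because of its counts in Tbpl2-/- libraries, so this call is no support for the change.

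Of 7 tested H2B genes, 5 fell and 1 rose at P14, and 4 fell and 1 rose at P7. On library size alone, 1 fell and 1 rose at P14, and 2 fell and 1 rose at P7. Hist3h2ba had 41.2, 96.01 and 59.3 normalised counts in P7 WT and 12.1, 13.8 and 13.7 in P7 Tbpl2-/-, with a log2 change of −2.28 (adjusted p 0.00044). Its P14 change was −1.19 (adjusted p 0.031). Hist1h2bh changed by −0.98 (adjusted p 0.0094) at P7 and −0.85 (adjusted p 0.024) at P14, and Hist1h2bj by −1.12 (adjusted p 0.024) at P14 only. These calls other than that of Hist3h2ba at P7 were lost with library size alone. The 3 P14 calls were also lost without P14 WT replicate 1 or P14 Tbpl2-/- replicate 1 (adjusted p 0.052 to 0.19), that of Hist1h2bh also without P14 WT replicate 2 (−0.82), that of Hist3h2ba without P14 Tbpl2-/- replicate 3 (−1.25), and that of Hist1h2bj without P14 WT replicate 3 (−1.11) or P14 Tbpl2-/- replicate 2 (−1.05). Hist1h2bk and Hist1h2bb, both with a transcript that ends within 30 bases of the stem-loop shown above, moved most but from very few reads. Hist1h2bk had 42 counts in the P7 WT libraries together and 1 in P7 Tbpl2-/-, a ratio of 41.0 (95% exact interval 6.97 to 1659, counting error only). At P14 it stood at 19.3, 20.7 and 23.9 normalised counts in WT and 1.91, 0.694 and 3.46 in Tbpl2-/- (log2 change −3.35). Of its transcript, 74.2% of 50-base stretches occur in another gene. Hist1h2bb went the opposite way. It had 0 counts in P14 WT and 23 in P14 Tbpl2-/-, at least 5.83-fold higher with a floor of 3 counts over the group, and at P7 2.01, 2.04 and 0 normalised counts in WT against 13.1, 17.0 and 15.8 in Tbpl2-/- (log2 change 3.40). Hist1h2bk and Hist1h2bb are counted among the genes that fell and rose. Each was tested only because of its counts in the genotype where it is high, so these calls are no support for the change.

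Of 5 tested H3 genes none fell. Hist1h3e and Hist1h3g were low, with their highest means in P7 Tbpl2-/-, and may have been tested only because of those libraries. That they did not fall, and the P7 rise of Hist1h3e given next, are thus no support for a change. Hist2h3c2 rose at P14 (1.60, SE 0.48, adjusted p 0.0095), from 6.44, 3.44 and 11.4 normalised counts to 18.2, 20.8 and 25.96, and Hist1h3e rose at P7 (1.19, adjusted p 0.047), a call lost in 17 of 18 alternatives. Of 6 tested H4 genes, 4 rose and none fell at P14, and 2 rose and 1 fell at P7. Hist4h4, which lies on chromosome 6 apart from the large clusters, had 26.1, 30.6 and 28.6 normalised counts in P7 WT and 84.8, 78.4 and 64.1 in P7 Tbpl2-/-. At P14 it had 18.3, 9.18 and 9.34 in WT and 41.2, 43.0 and 36.3 in Tbpl2-/-. Mutant libraries were higher at both ages, by 1.43 log2 (SE 0.28, adjusted p 0.00040) and 1.72 (SE 0.31, adjusted p 0.00023). Hist1h4a rose by 1.07 (SE 0.30, adjusted p 0.0060) at P7 and 1.76 (SE 0.32, adjusted p 0.00025) at P14. It had 23.1, 26.6 and 23.5 normalised counts in P7 WT against 52.5, 46.6 and 52.6, and 9.66, 11.5 and 15.6 in P14 WT against 53.6, 40.9 and 29.4. Both genes passed in all 18 alternatives at both ages. Hist1h4h (0.79, adjusted p 0.029) and Hist1h4c (0.90, adjusted p 0.029) rose at P14 only, and Hist1h4i fell at P7 (−0.90, adjusted p 0.016). The rise of Hist1h4h was lost without P14 WT replicate 3 (0.52) or P14 Tbpl2-/- replicate 2 (0.73), that of Hist1h4c without P14 WT replicate 1 (0.81) or 2 (0.73) or P14 Tbpl2-/- replicate 1 (0.66), and the fall of Hist1h4i with library size alone and without P7 WT replicate 2 (−0.68) or P7 Tbpl2-/- replicate 2 (−0.67). Hist2h4, another H4 gene, at 118.7 to 357.4 normalised counts in P14 Tbpl2-/- and 146 to 164 in P14 WT, overlapped between genotypes and did not pass (0.64, adjusted p 0.062).

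From P7 to P14 in WT, 17 of the 39 tested members fell and 1 rose, against 23.4% lower and 26.8% higher among all tested genes, with a median log2 change of −0.53 beside 0.03. Of the 11 tested variants 10 fell and none rose (median −0.78), and with library size alone all 11 fell. H2afy fell by 1.29 on the log2 scale (SE 0.12, adjusted p 2.0e-06), H2afz by 0.99 (adjusted p 0.00013), H3f3a by 0.96 (adjusted p 0.00010) and H2afv by 0.96 (adjusted p 0.00099). H1fx fell by 0.82, H2afj by 0.78, H3f3b by 0.64, H2afx by 0.51 and H1f0 by 0.48 (adjusted p 0.0024 to 0.011). H2afy2 did not pass (−0.46, adjusted p 0.052). For H1foo, H1f0, H1fx, H3f3b, H2afx, H2afz and H2afv, P7 WT replicate 3 was the highest of the P7 WT libraries. Among the replication-dependent genes 7 fell and 1 rose, and 5 of the 6 H4 genes were among those that fell, with log2 changes of −1.2206 for Hist2h4, −1.20 for Hist4h4 and −1.05 for Hist1h4h. The gene that rose was Hist1h2be, an H2B gene (1.11, adjusted p 0.024). Its call was lost without P14 WT replicate 1 (1.09) or 2 (1.07) or P7 WT replicate 3 (0.86), and that of H2afx was lost without P7 WT replicate 3 (−0.35, adjusted p 0.068). The falls of Hist1h4i and Hist1h4a were both lost without P14 WT replicate 2 (−0.83 and −0.93) or P7 WT replicate 2 (−0.71 and −0.92), which leaves 3 of the 6 H4 genes, and also without P14 WT replicate 3 for Hist1h4i (−0.89) and P14 WT replicate 1 for Hist1h4a (−0.83). Over the same comparison 8 of the 16 granulosa markers fell and 1 rose (median −0.89), and 2 of the 3 tested blood and endothelial markers rose. Their part in the stage changes was not tested.

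In Tbpl2-/- oocytes fewer members passed between the ages, with 6 lower and 2 higher against 15.3% lower and 18.4% higher among all tested genes. H2afy was the only variant past the threshold, a fall of 1.17 (SE 0.12, adjusted p 4.0e-06). Hist1h1c fell by 0.80, Hist1h2bc by 0.65, Hist1h1d by 1.07, Hist3h2a by 1.25 and Hist4h4 by 0.91, the last lost without P14 Tbpl2-/- replicate 3 (−0.83) or P7 Tbpl2-/- replicate 1 (−0.82) or 2 (−0.88). Hist1h2aa rose by 1.38 (SE 0.20, adjusted p 0.00011) and Hist1h1a by 0.86 (adjusted p 0.047), the latter in only 3 of 18 alternatives. For H1foo the mutant change was 0.39 (adjusted p 0.060). The stage comparisons use the same libraries as the genotype comparisons, so they are not separate evidence.

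**Figure D4:**
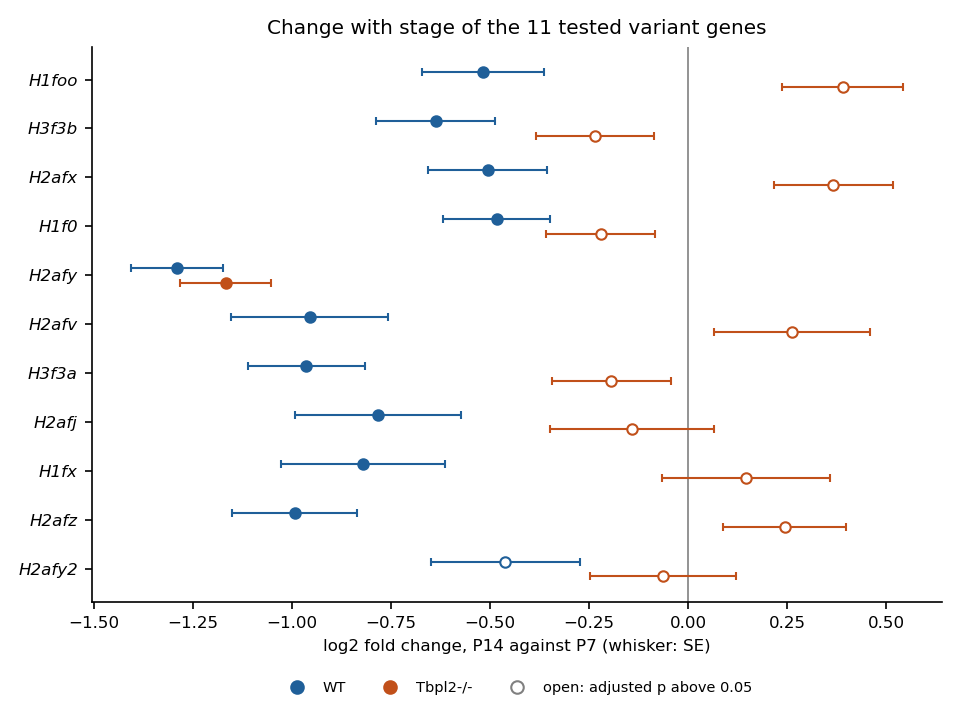
Log2 change from P7 to P14 (horizontal axis, with SE) of the 11 tested variant genes in WT and in Tbpl2-/- oocytes. Filled points have an adjusted p of at most 0.05: in WT 10 of the 11 lie below 0 and are filled, and in Tbpl2-/- only H2afy is.

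The test of whether the genotype change differed between P14 and P7 passed for 10 members, 9 with a higher value at P14 and 1 with a lower, against 13.6% higher and 14.3% lower among all tested genes. The 9 were H2afz, H2afv, H1foo, H2afx, Hist1h2aa, H3f3a, H1fx, Hist1h4h (1.37, adjusted p 0.021) and Hist1h1a (1.37, adjusted p 0.023), and the 1 was Hist1h1d. Of the 11 tested variants 6 passed, all higher at P14. The granulosa marker sums given above differ between the genotypes at P7 and overlap at P14, and 9 of the 16 granulosa markers passed the same test in the same direction. Their part in the histone values was not tested.

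Promoter sequence is shown for the tested members with a TATA box motif, because TBPL2 belongs to the family of TATA-binding proteins, and for H1foo. Of the 87 members, 77 were matched to a promoter in RefSeq (GRCm38.p6). The motif TATAAA, searched on the strand of the gene and starting 40 to 20 bases before the annotated start, was found in 13 of these and in 655 of 32851 promoters (1.99%). H1foo had no TATAAA there. A search for TATTTA, added after its promoter had been read, found it in H1foo, Hist1h4c and Hist1h3c and in 210 promoters (0.639%). Each line gives the 60 bases before the start with the motif in capitals.
H1foo: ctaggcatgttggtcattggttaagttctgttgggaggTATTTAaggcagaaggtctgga
H3f3b: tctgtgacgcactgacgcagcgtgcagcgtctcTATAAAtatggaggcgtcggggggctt
Hist1h2aa: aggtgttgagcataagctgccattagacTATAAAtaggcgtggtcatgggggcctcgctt
Hist1h1a: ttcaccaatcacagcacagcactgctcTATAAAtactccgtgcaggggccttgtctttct
Hist1h1d: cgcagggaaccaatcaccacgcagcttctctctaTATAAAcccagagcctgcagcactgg
Hist1h1e: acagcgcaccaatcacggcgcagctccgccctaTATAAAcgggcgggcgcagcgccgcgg
Hist3h2ba: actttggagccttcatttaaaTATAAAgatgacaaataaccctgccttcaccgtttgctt
Hist1h2ac: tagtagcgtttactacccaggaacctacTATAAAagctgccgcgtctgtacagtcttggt
Their positions are chr6:115944871-115944930 (plus strand), chr11:116024505-116024564 (minus), chr13:23934377-23934436 (plus), chr13:23763608-23763667 (plus), chr13:23554972-23555031 (plus), chr13:23622559-23622618 (minus), chr11:58948851-58948910 (plus) and chr13:23683960-23684019 (minus), in the order of the lines. A match is no proof of a working site, and a missing match says only that these letters are not in this window.

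Of the 7 tested members with TATAAA, 6 fell and none rose at P14 (median log2 change −1.19), and 5 fell and 1 rose at P7 (median −1.46). The gene that did not fall at P14 was Hist1h1e, and at P7 Hist1h1e rose and Hist1h1d did not pass. The P7 calls of Hist1h1e and Hist1h2ac and the P14 calls of Hist1h1a and Hist3h2ba were lost in some alternatives, as given above. Of the 25 tested members with a RefSeq promoter and no TATAAA, 8 fell and 9 rose at P14 (median 0.47), and 10 fell and 6 rose at P7 (median −0.17). Over all tested genes, the 200 with TATAAA were lower in 30.0% and higher in 29.5% at P14 (median −0.03), and lower in 38.0% and higher in 23.5% at P7 (median −0.40). The 11472 without it were lower in 29.0% and higher in 31.7% at P14, and lower in 27.7% and higher in 34.1% at P7. The 63 tested genes with TATTTA were lower in 31.7% and higher in 27.0% at P14, and lower in 33.3% and higher in 27.0% at P7. Of the tested members with TATTTA, H1foo fell at both ages and Hist1h4c rose at P14 only. The grouping of members by TATAAA was made with their changes known and was not tested. This search took exact letters before annotated starts. The authors instead scored the best match to a TBP motif matrix before the main starts they mapped in P14 oocytes. The measures differ, so these shares are not set against theirs. H1foo and H1f0, with the largest falls among the variants, had no TATAAA. A promoter without it can hold similar letters, such as TATTTA in H1foo. The part of any such motif in these falls was not tested.

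**Figure D5:**
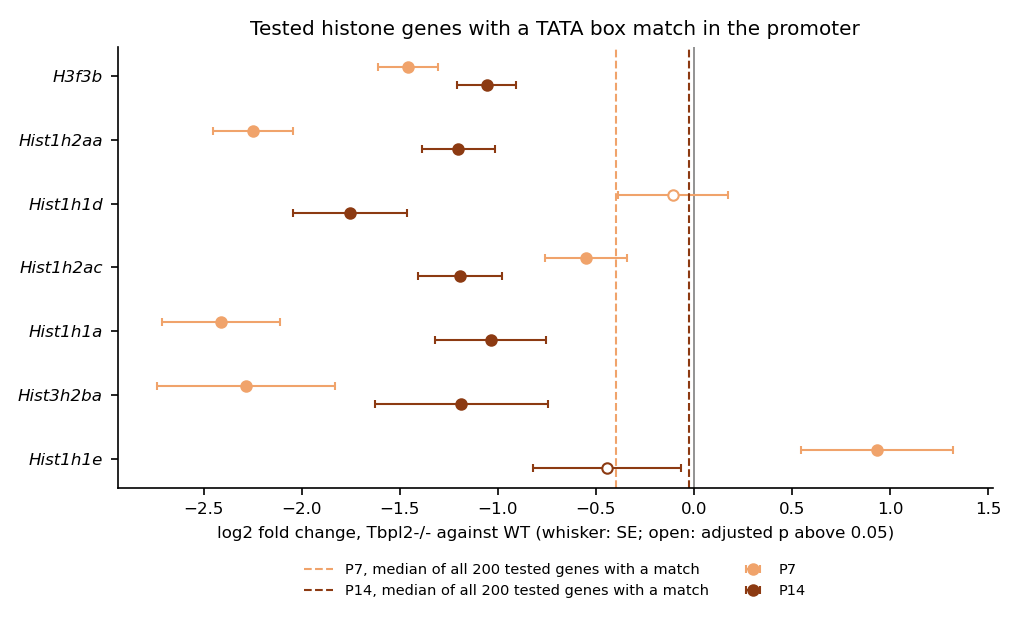
Log2 change in Tbpl2-/- against WT (with SE) of the 7 tested members with TATAAA 40 to 20 bases before the annotated start, at P7 and P14. Dashed lines are the medians of the 200 tested genes with the motif (−0.40 at P7 and −0.03 at P14), and 6 of the 7 members fell at P14. The P14 falls of Hist1h1a and Hist3h2ba were lost in some alternatives.

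Genes that make, carry and place histones were taken as a list of 48, all of which were tested. At P14, 20 fell and 9 rose, against 27.8% lower and 29.9% higher among all tested genes (median log2 change −0.10 beside 0.07). At P7, 21 fell and 12 rose, against 28.9% and 30.5% (median −0.13 beside 0.02). With library size alone, 11 fell and 19 rose at P14, and 15 fell and 16 rose at P7. Slbp, which encodes the protein that binds the stem-loop of replication-dependent histone mRNA, had 64979, 66403 and 70621 normalised counts in P7 WT and 13326, 11132 and 10653 in P7 Tbpl2-/-. At P14 it had 55708, 64988 and 45726 in WT and 20530, 15589 and 15255 in Tbpl2-/-. All mutant libraries lay below all WT libraries, and the log2 changes were −2.51 (SE 0.15, adjusted p 1.78e-09) at P7 and −1.67 (SE 0.14, adjusted p 1.06e-07) at P14. Npm2, an oocyte histone chaperone of the nucleoplasmin family, changed by −2.14 at P7 and −1.49 at P14, and Rbbp7, a histone-binding subunit of chromatin assembly and histone acetyltransferase complexes, by −1.53 and −1.48. Atrx, a remodeller that places H3.3 together with DAXX, changed by −2.01 at P7 and −1.98 at P14, and Asf1a, a chaperone of H3 and H4, by −1.83 and −0.91 (48.0% of its exons overlap Mcm9).

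Among those that rose, Cstf2 and Cstf2t, both for subunits of the cleavage stimulation factor used in polyadenylation, changed by 1.03 and 0.82 at P7 and 0.52 and 0.33 at P14. Chaf1b, a subunit of chromatin assembly factor 1, was 2.14-fold higher at P7 and 1.41-fold higher at P14. Hat1, which acetylates new H4, changed by 0.36 and 0.42, and Ruvbl1, an ATPase of remodelling complexes, by 0.64 and 0.90. Ipo4, an importin that carries H3 and H4, rose at P7 (1.35) and did not pass at P14 (0.21, adjusted p 0.15). Set, a histone chaperone, fell at P7 (−0.58, adjusted p 0.016) and rose at P14 (0.95, adjusted p 0.00065), the same order as H2afz. In the S phase list, 12 of 24 genes fell and 2 rose at P14, and 13 fell and 6 rose at P7, beside the same shares of all tested genes. As a share of all counts, the list took 0.433% ± 0.0123 in WT and 0.437% ± 0.0305 in Tbpl2-/- at P14, and 0.407% ± 0.0267 and 0.462% ± 0.00921 at P7, so its sum was not lower in the mutant on that scale. In normalised counts the sum was lower in every mutant library. It was 189822 to 210576 in WT and 139095 to 159558 in Tbpl2-/- at P14, and 155764 to 185827 and 151957 to 155365 at P7.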

How the data were processed

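A gene table deposited for the 12 libraries was the starting point. It pairs gene identifiers, symbols and median transcript lengths. Its raw counts were made by the authors from poly(A)-primed, amplified cDNA (a kit that marks no strand) with STAR 2.7.0f and HTSeq 0.9.1 in union mode on uniquely aligned reads, after base calling with bcl2fastq 2.17.1.14 per the submitters' notes. In union mode a read in the exons of more than 1 gene is not counted, and the strand setting is not given in the sources used here. Its normalised counts, a signal that the authors computed with DESeq2 1.22.2 under R 3.5.3, equal the counts divided by 1 factor per library. They are used here for levels, means and SDs. The table's columns of the authors' own comparisons (fold changes, p-values) were not used.

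Counts of the 17715 genes that passed edgeR's filter on low counts were fitted with edgeR 4.0.16 (quasi-likelihood, robust, TMM factors, 4 group means over 12 libraries, R 4.3.3), two-sided, with Benjamini-Hochberg adjustment over all tested genes. A member "fell" or "rose" at an adjusted p of at most 0.05, the SE was taken as the size of the log2 change over the root of the F statistic, and the fit was tested on simulated data. Comparisons were Tbpl2-/- against WT at P7 and at P14, P14 against P7 in each genotype, and the difference of the genotype changes. Positions, exon overlaps, shared 50-base stretches and stem-loops come from GENCODE M21 (GRCm38), in which all 55450 identifiers were found, and promoters from RefSeq. Alternatives were DESeq2 1.42.0, other scalings and filters, a replicate block, only the 6 libraries compared, and leaving out each library in turn. Reads carry no molecular identifiers, so intervals and floors cover counting error only, and an exact permutation of 3 against 3 libraries could not go below p = 0.1. The members and gene lists were chosen with earlier results of these data known. Genes were named by rule: all variant and germline genes, the 6 other members with the highest mean count, up to 4 in each direction with the largest called change in each comparison, and up to 4 of the handling genes in each direction with the smallest adjusted p at each age. Same-numbered libraries of different groups had correlated deviations of −0.11 to 0.26, with 2 of 18 pairs over 0.1, so they were not paired.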

Additional observations from a re-analysis of the deposited data

Results flagged for a closer look

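For 10 members the genotype change at P14 differed from that at P7 by the test of the difference itself (edgeR's quasi-likelihood test, adjusted p 0.0016 to 0.025), which is why they are listed here. The difference, P14 minus P7 on the log2 scale, was 1.24 for H2afz, 1.219 for H2afv, 0.91 for H1foo, 0.87 for H2afx, 0.77 for H3f3a, 0.97 for H1fx, 1.05 for Hist1h2aa, 1.37 for Hist1h4h, 1.37 for Hist1h1a and −1.65 for Hist1h1d. Those of H1fx, Hist1h4h and Hist1h1a were lost when single libraries were left out (adjusted p 0.051 to 0.063): P14 or P7 Tbpl2-/- replicate 2 for H1fx and Hist1h4h, P7 WT replicate 3, P14 WT replicate 2 and P7 Tbpl2-/- replicate 2 or 3 for H1fx and Hist1h1a. The other 7 passed in every alternative. The value of H1fx was 0.64 without P7 WT replicate 3. P7 WT replicate 3 was the highest P7 WT library for several of these genes. The granulosa markers, lower at P7 in the mutant, move with the positive differences. Hist1h1d, with a negative difference, goes the other way, and replicate 3 was its lowest P7 WT library. The part of that library and of the granulosa markers was not tested.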

How the results depend on the processing

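Of the members past the threshold, 16 of 25 at P14, 15 of 24 at P7, 13 of 18 between ages in WT, 6 of 8 in Tbpl2-/- and 7 of 10 in the test of the difference passed in every alternative, and none turned its sign. With library size alone, 8 members were lower and 17 higher at P14, 10 lower at P7, 1 higher between ages in Tbpl2-/-, and the histone handling genes were 11 lower and 19 higher at P14. Among genes with a mean above 100 normalised counts, the counts were 7 lower and 4 higher at P14, 10 lower and 2 higher at P7, 0 higher between ages in WT, 3 lower and 1 higher in Tbpl2-/-, and 0 lower in the difference. This filter tests fewer members. Without a filter on low counts, 0 members were higher between ages in WT. The number higher between ages in Tbpl2-/-, 2 in the fit reported, was 1 with DESeq2, with the replicate block and with only the 6 libraries compared, and the replicate block moved no other count by more than 1.5 times. Leaving out each library in turn gave 0 to 1 higher between ages in WT (0 without P14 WT replicate 1 or P7 WT replicate 3), 1 to 4 higher in Tbpl2-/-, and 1 to 2 lower in the difference (2 without P7 WT replicate 3). The causes were not tested. Depth limits the replication-dependent genes: 48 members were not tested, and Hist1h2bb and Hist1h2bk rest on 23 and 42 counts in the higher group of 1 comparison.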
